A study of Mus musculus with 8 samples.

Results

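The integrin and laminin genes were followed here through RNA sequencing of mouse retinal ganglion cells, the neurons whose axons form the optic nerve. A gene was taken as a member when its symbol in the deposited table was that of an integrin alpha subunit (Itga), an integrin beta subunit (Itgb with a single digit), or a laminin alpha, beta or gamma chain (Lama, Lamb, Lamc). This gave 37 of the 24942 genes listed, of which 18 encode integrin alpha subunits, 8 integrin beta subunits and 11 laminin chains. There were 4 libraries from NPC1-deficient mice and 4 from wildtype littermates, all at postnatal day 8. Both groups came from the strain that the labels call balb/cnctr-npc1m1n/j, whose Npc1 mutation is carried in the germline and so in the other cells of the retina too. The cells were purified by immunopanning, which catches a cell type on a plate through antibodies to its surface, and their RNA was harvested on that plate. Whether the libraries stem from separate or pooled animals is not stated, and every p-value here therefore refers to the spread among these libraries alone. No agent was given to either group, as far as the labels say.

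Integrins are receptors of 1 alpha and 1 beta subunit that span the cell membrane, bind the extracellular matrix or other cells, and link it to actin inside the cell. The alpha-v subunit joins with several beta subunits, among them beta-5, and binds matrix proteins such as vitronectin. Alpha-3, alpha-6 and alpha-7, each with beta-1, bind laminins, while alpha-L, alpha-M, alpha-X and alpha-D join with beta-2 on leukocytes, including microglia. Laminins are trimers of an alpha, a beta and a gamma chain that build basement membranes such as the inner limiting membrane, along which ganglion cell axons grow. The comparison asks how loss of NPC1, which moves cholesterol out of lysosomes, changes expression in these neurons.

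The groups follow the titles and descriptions, and a second label field goes against them, since it gives wildtype for the first 2 libraries of each group and homozygous for the rest. Npc1 itself stood at 707 to 857 normalized reads in the wildtype libraries and at 66.1 to 139.8 in the NPC1-deficient ones, and grouped by the second field its log2 difference was -0.18 (adjusted p = 0.951 in limma). Library totals ran from 33030175 to 44050118 reads. The geometric mean of the 15 ganglion cell markers tested was 10927 to 11994 in every library, against 81.7 to 602 for 16 markers of microglia and 127.7 to 452 for 13 rod markers. The female transcript Xist read 18.2 to 595 in the wildtype libraries but 0 to 68.1 in the others, and sex therefore cannot be fully told apart from genotype. No member lies on a sex chromosome.

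The start regions of Itgb5, of its partner Itgav and of the leukocyte gene Itgam are shown because these genes carry the main contrast below. RefSeq (GRCm38.p6) gave 300 bases, 250 before and 50 after the start, for 23 of the 37 members. Capitals mark 2 short motifs on either strand, GAGGAA, the core of sites of the myeloid factor PU.1, and GGGCGG, the GC box, which do not overlap in these windows. The regions are chr16:33829415-33829714 for Itgb5, chr2:83724147-83724446 for Itgav and chr7:128062390-128062689 for Itgam, all on the plus strand.
Itgb5: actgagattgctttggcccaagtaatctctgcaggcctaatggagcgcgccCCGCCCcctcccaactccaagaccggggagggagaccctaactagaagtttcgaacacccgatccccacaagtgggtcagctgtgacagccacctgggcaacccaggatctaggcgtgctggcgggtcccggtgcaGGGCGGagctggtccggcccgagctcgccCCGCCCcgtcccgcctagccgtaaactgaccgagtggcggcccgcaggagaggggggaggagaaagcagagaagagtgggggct
Itgav: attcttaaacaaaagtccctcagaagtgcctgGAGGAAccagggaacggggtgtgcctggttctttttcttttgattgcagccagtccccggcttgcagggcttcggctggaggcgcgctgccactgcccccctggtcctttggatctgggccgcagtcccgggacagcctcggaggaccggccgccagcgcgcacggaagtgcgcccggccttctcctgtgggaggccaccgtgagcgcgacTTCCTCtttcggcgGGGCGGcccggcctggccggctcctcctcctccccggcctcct
Itgam: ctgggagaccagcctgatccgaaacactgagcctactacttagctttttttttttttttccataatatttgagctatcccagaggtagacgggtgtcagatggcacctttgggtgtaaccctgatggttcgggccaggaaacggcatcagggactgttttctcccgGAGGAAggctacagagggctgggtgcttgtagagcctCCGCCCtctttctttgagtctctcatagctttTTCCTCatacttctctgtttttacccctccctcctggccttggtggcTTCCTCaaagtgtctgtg
The Itgb5 window held 3 GC boxes, 20 CpG pairs and no GAGGAA. That of Itgav held 1 GC box, 24 CpG pairs and 2 copies of GAGGAA, and that of Itgam held 1 GC box, 6 CpG pairs and 3 copies of GAGGAA. Over all 32851 such windows, 28.3% held GAGGAA and 35.7% held GGGCGG, and the median was 7 CpG pairs. A match is a description of the letters and not of binding.

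Itgb5 was the member that fell. Its normalized read count, which is the number of reads on the gene divided by a size factor of the library, was 349, 453, 480 and 506 for wildtype 1 to 4, against 179.7, 206, 228 and 214 for NPC1-deficient 1 to 4. All 4 NPC1-deficient libraries lay below all 4 wildtype libraries, and the mean fell from 447 ± 68.9 to 207 ± 20.2 (SD, n = 4), 46.3% of the wildtype mean. On the log2(value + 1) scale used for every fold change here, it fell by 1.10 (SE 0.12, 95% interval -1.37 to -0.83, limma adjusted p = 0.0103). The gene (ENSMUSG00000022817) lies on chromosome 16 from 33829665 to 33949338 in mm10, on the plus strand, and its exons overlap those of no other annotated gene. Within libraries 1 and 2 the log2 fold change was -1.04, and within libraries 3 and 4 it was -1.16.

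Of the 28 members with a mean of at least 10 normalized reads, which were the ones tested, Itgb5 alone passed the limma threshold of an adjusted p under 0.05 in the fit of all libraries. Over all 15386 genes tested, 16 passed, which is 0.104%, with 6 higher and 10 lower. The 28 members had 15 positive and 13 negative fold changes, with a median of 0.02 against 0.0050 over all genes tested, and 21 lay within 0.35 of 0 on the log2 scale. The groups did not overlap for 2 of the 28, Itgb5 and Lamb2, both lower in NPC1-deficient libraries. Among all genes tested, 2.41% were apart in that direction.

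**Figure D1:**
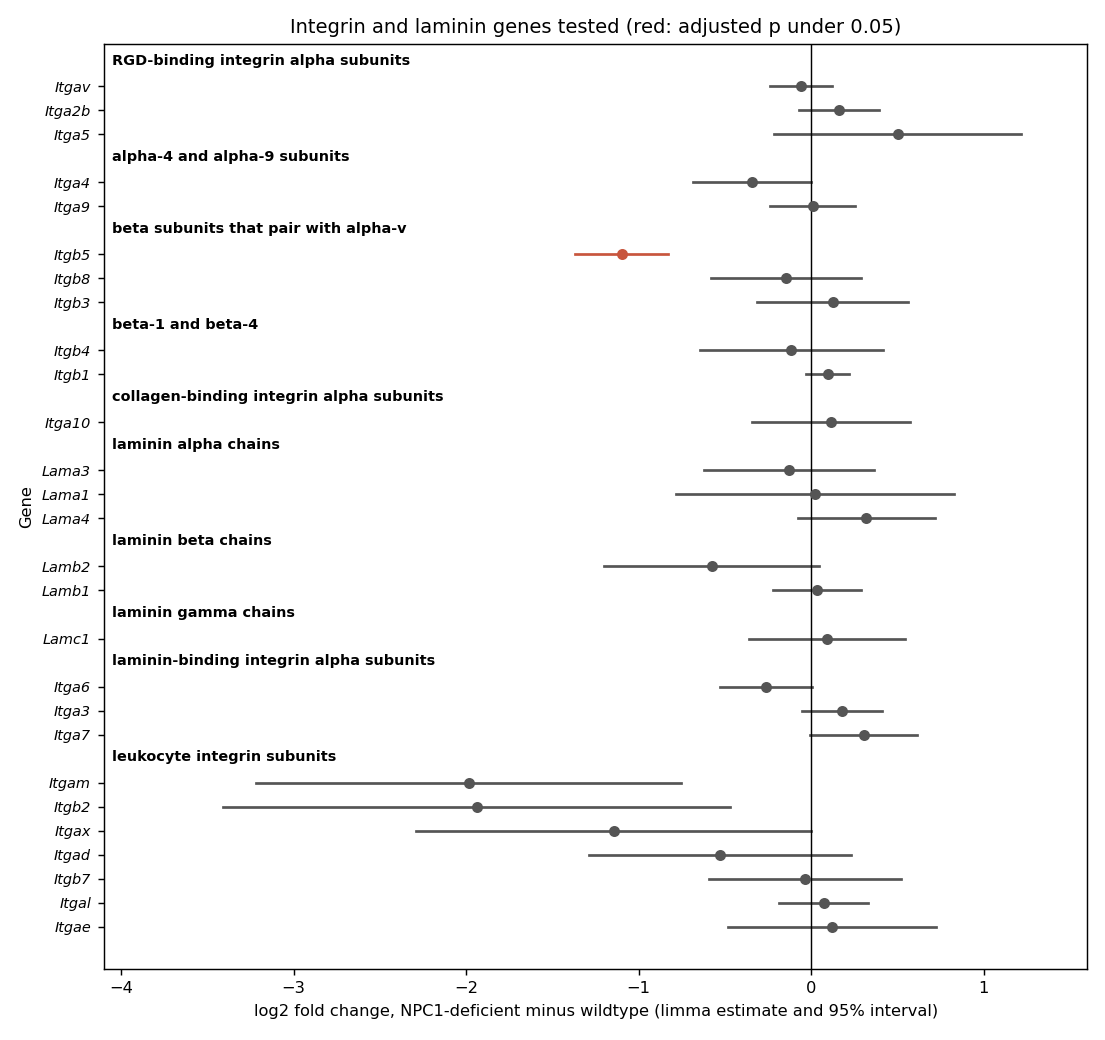
Log2 fold change of 27 of the integrin and laminin genes tested, NPC1-deficient minus wildtype, with the limma 95% interval, grouped by role. Itgb5 (red) at -1.10 is the one past the threshold, while Itgav lies at -0.06 and the widest intervals belong to Itgam and Itgb2.

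Itgav, the only alpha subunit known to join beta-5, did not separate the groups. It stood at 633, 572, 701 and 562 normalized reads in wildtype 1 to 4 and at 592, 622, 566 and 581 in NPC1-deficient 1 to 4. All 4 NPC1-deficient values fell inside the wildtype range. The log2 fold change was -0.06 with a 95% interval from -0.24 to 0.12 (limma adjusted p = 0.995). Part of the Itgav exons, 5.90%, overlaps the opposite-strand gene Gm13684, whose reads cannot be told apart from those of Itgav.

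The ratio of Itgb5 to Itgav within each library sets these 2 genes against each other. On the log2 scale it came to -0.86, -0.34, -0.55 and -0.15 for wildtype 1 to 4, against -1.71, -1.59, -1.31 and -1.44 for NPC1-deficient 1 to 4. The mean fell by 1.04, from -0.47 ± 0.30 to -1.51 ± 0.18 (SD, n = 4), with p = 0.0286 in a two-sided exact permutation test, which is as low as 70 assignments can go. All 4 wildtype ratios exceeded all 4 NPC1-deficient ratios. Itgb5 by itself already separated the groups, and Itgav varied little, at 562 to 701. The separation of the ratio and its p are therefore no support apart from Itgb5. Per kilobase of exon, which allows levels of different genes to be compared, Itgb5 stood at 125.8 and Itgav at 57.4 in wildtype. In NPC1-deficient libraries the levels per kilobase were 58.2 for Itgb5 and 54.9 for Itgav.

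Of the other beta partners of alpha-v, Itgb8 and Itgb3 did not pass. Itgb8, which with alpha-v binds latent TGF-beta, stood at 98.0, 73.7, 68.1 and 58.3 in wildtype 1 to 4 and at 59.0, 52.0, 74.1 and 83.6 in NPC1-deficient 1 to 4. These ranges overlapped, and the log2 fold change was -0.15 (SE 0.20). Itgb3, the beta subunit of the vitronectin receptor alpha-v beta-3 and of the platelet fibrinogen receptor, had means of 30.9 ± 3.97 for wildtype and 33.96 ± 5.85 for NPC1-deficient libraries (SD, n = 4), with a log2 fold change of 0.12 (SE 0.20). Itgb6, an epithelial subunit, was low at 2.02 to 15.3 and was not tested. Summed per kilobase over these 4 beta subunits, Itgb5 made up 90.3% ± 2.47 in wildtype and 81.6% ± 1.35 in NPC1-deficient libraries (SD, n = 4). It was the most abundant of these 4 per exon length in every library. The sum leaves out Itgb1, whose product joins most of the matrix-binding alpha subunits. Itgb1 stood at 1775 per kilobase in wildtype and 1898 in NPC1-deficient libraries. The percentages are therefore not shares of all alpha-v partners.

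**Figure D2:**
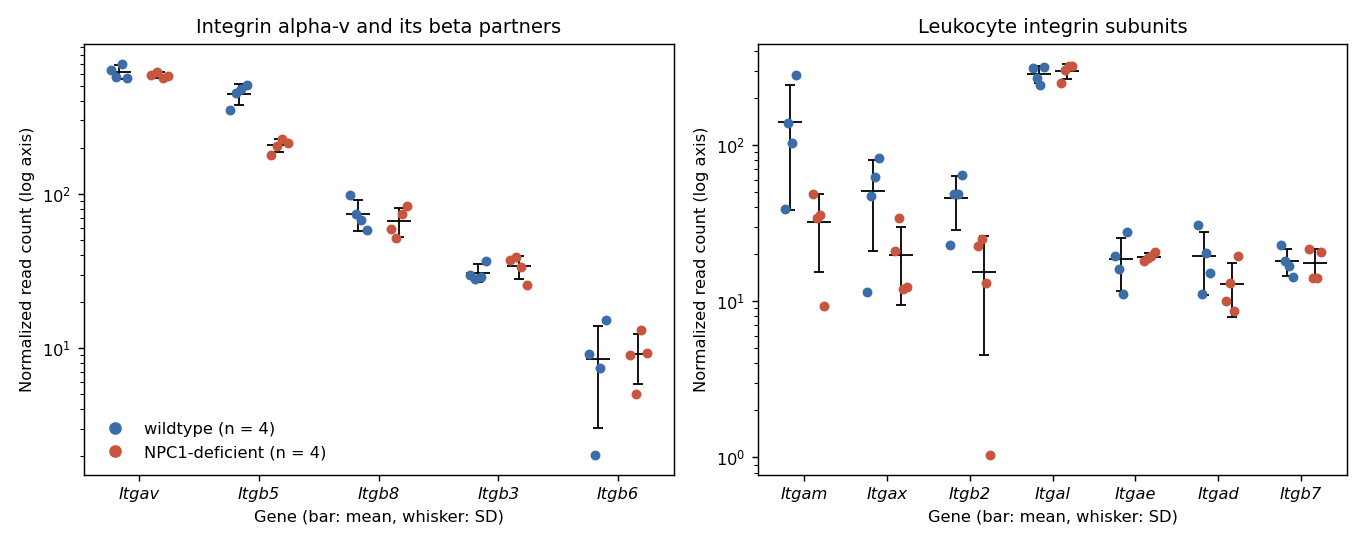
Normalized read count on a log axis in each library (points) with the group mean and SD, for alpha-v and some of its beta partners (left) and for the leukocyte integrin subunits (right). Itgb5 separates into wildtype libraries at 349 to 506 and NPC1-deficient libraries at 179.7 to 228, and Itgav, Itgb8, Itgb3 and Itgb6 overlap.

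Among the leukocyte subunits, Itgam, Itgax and Itgb2 had the largest negative fold changes, but with a wide spread in wildtype. Itgam, the alpha subunit CD11b of microglia and other myeloid cells, stood at 38.8, 139.3, 103.5 and 281 in wildtype 1 to 4 and at 49.0, 34.02, 36.0 and 9.29 in NPC1-deficient 1 to 4. Wildtype 1 lay inside the NPC1-deficient range, and the other 3 wildtype libraries lay above it. This gave a log2 fold change of -1.99 (SE 0.56) with an adjusted p = 0.231 in limma. Itgb2, the shared beta subunit CD18, stood at 22.8, 48.4, 48.5 and 64.6 in wildtype and at 22.7, 25.0, 13.1 and 1.03 in NPC1-deficient 1 to 4, with a log2 fold change of -1.94 (SE 0.67, limma adjusted p = 0.450). Again wildtype 1 was the library inside the other group's range. Itgax, the dendritic and microglial subunit CD11c, stood at 11.4, 47.4, 62.5 and 82.5 in wildtype and at 20.9, 34.02, 11.99 and 12.4 in NPC1-deficient 1 to 4, with a log2 fold change of -1.14 (SE 0.53, limma adjusted p = 0.739). Wildtype 1 was the lowest of all 8 libraries here, and the other 3 wildtype libraries were the highest. The Itgam count may be uncertain, since 68.7% of its exonic length is shared with Gm49368 on the same strand. That gene is not in the deposited table, so whether it entered the counting is not known.

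These 3 genes depended on which libraries were compared. Within libraries 3 and 4 the log2 fold changes were -3.14 for Itgam, -3.41 for Itgb2 and -2.46 for Itgax, and all passed beside Itgb5 (limma adjusted p = 0.0190, 0.0425 and 0.00305), in a fit where 2.0% of all genes passed. Within libraries 1 and 2 they were -0.84, -0.47 and 0.18, and none of the 3 passed. Without wildtype 1, where 0.916% of all genes passed, Itgam was at -2.49 and Itgax at -1.73 (limma adjusted p = 0.0379 and 0.0464), and Itgb2 at -2.24 did not pass (0.360). Without both libraries numbered 1, where 1.09% passed, Itgam passed at -2.76 (limma adjusted p = 0.0270), while Itgax at -1.8 (0.0676) and Itgb2 at -2.58 (0.232) did not.

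The microglial level moved with these genes. The geometric mean of 16 microglial markers, none of them an integrin, came to 130.6, 405, 352 and 602 for wildtype 1 to 4, against 161.5, 135.2, 149.6 and 81.7 for NPC1-deficient 1 to 4. The fold changes of all 16 were negative (median -1.46), none passed over all genes though 14 had an unadjusted limma p under 0.05, and their summed level ran from 3961 to 16258 for wildtype and from 2861 to 4626 for NPC1-deficient libraries. None of the 16 was at 0 in every library. In bulk RNA, fewer microglia and less RNA per microglial cell cannot be told apart. With the microglial level as a term in the limma fit, the log2 fold changes were -0.07 for Itgam, -0.32 for Itgb2 and 0.39 for Itgax (adjusted p = 0.980, 0.960 and 0.919). Itgad, another leukocyte subunit, moved away from 0 with this term, from -0.53 to -1.35 (limma adjusted p = 0.288). Itgb7, Itgal and Itgae were at -0.39, -0.02 and 0.20 with it.

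Itgb5 can be expressed by microglia as well as other cells, so its counts are set beside the microglial level. Wildtype 1, the only wildtype library in that position, had a microglial level of 130.6, inside the NPC1-deficient range of 81.7 to 161.5, and its Itgb5 count of 349 was above the highest NPC1-deficient count of 228. This comparison rests on 1 library that stood apart in other ways. Wildtype 1 had the highest Xist (595), the lowest summed Y-linked transcripts (45.6) and the highest rod (452) and glial (630) geometric means of all libraries. Itgb5 minus the microglial level, on the log2 scale, came to 1.41, 0.16, 0.45 and -0.25 for wildtype 1 to 4, against 0.15, 0.60, 0.60 and 1.38 for NPC1-deficient 1 to 4. These differences overlapped, and 3 of the 4 wildtype values were below 0.60. When the microglial level entered the fit, the log2 fold change of Itgb5 stood at -0.86 and passed (limma adjusted p = 0.0443). That level lay above the whole NPC1-deficient range in 3 of the 4 wildtype libraries, so the term is hard to separate from genotype. With the rod, the Müller glial and astrocyte, or the endothelial and pericyte level in its place, the log2 fold change of Itgb5 was -1.47, -1.59 and -1.07 (limma adjusted p = 0.00689, 0.0290 and 0.00157). Rod markers too were higher in every wildtype library, at a geometric mean of 189.5 to 452 against 127.7 to 174.0, and glial markers at 519 to 630.4 against 453 to 496. Of the rod markers, 13 of 13 had a negative fold change, with a summed level of 5222 to 11413 for wildtype and 3682 to 4556 for NPC1-deficient libraries. Of the glial markers, 7 of 12 were negative, with sums of 25623 to 27312 and 24273.6 to 24696. Among these Apoe, a lipid carrier, fell by 1.31 (limma adjusted p = 0.0482). No marker of either list was at 0 throughout. Amacrine markers, 7 of 10 of them negative, had geometric means of 752 to 1305 for wildtype and 486 to 676 for NPC1-deficient libraries. Amacrine sums overlapped, at 49221 to 55632 and 47427 to 51254. Horizontal cell markers had sums of 1229 to 2119 and 841 to 1041, but their geometric means overlapped, at 132 to 260 and 124 to 166. Of the 3 tested, 1, Calb1, fell by 0.84 (limma adjusted p = 0.0477). Endothelial sums were 357 to 584 and 300.4 to 334, but the geometric means overlapped, at 33.6 to 46.8 and 31.7 to 34.7. Bipolar markers were negative in 10 of 10, with overlapping sums. Ganglion cell markers went the other way, with 13 of 15 positive and a median log2 fold change of 0.06. Their sums were 396278 to 423733 for wildtype and 426579 to 452905 for NPC1-deficient libraries. Their geometric means overlapped, at 10981 to 11511 and 10927 to 11994. Markers without overlap between the groups and lower in NPC1-deficient libraries were 8 of 13 for rods, 3 of 12 for glia and 1 of 16 for microglia. They were 4 of 10 for amacrine, 2 of 3 for horizontal, 1 of 6 for endothelial, 0 of 10 for bipolar and 0 of 15 for ganglion cells. The share over all genes tested was 2.41%. Amacrine, horizontal, bipolar and ganglion cell levels were not run as terms, and the part of these cell types in the Itgb5 difference was not tested further.

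**Figure D3:**
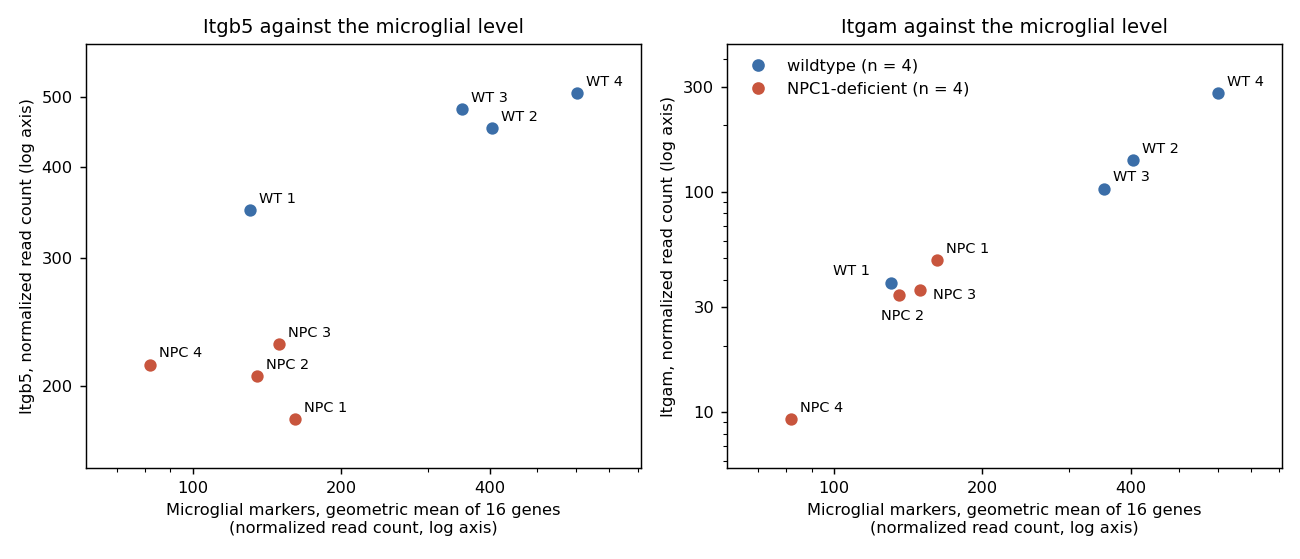
Itgb5 (left) and Itgam (right) in each library against the geometric mean of 16 microglial markers, both as normalized read counts on log axes, with WT for wildtype and NPC for NPC1-deficient. Wildtype 1 sits among the NPC1-deficient libraries on the microglial axis, where its Itgb5 is 349 against 179.7 to 228 and its Itgam is 38.8 against 9.29 to 49.0.

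The remaining leukocyte subunits had fold changes nearer to 0. Itgal, the alpha subunit CD11a of lymphocyte LFA-1, stood at 313, 268, 242 and 317 in wildtype 1 to 4 and at 250.5, 303, 324 and 321 in NPC1-deficient 1 to 4. The groups overlapped, with a log2 fold change of 0.07 (SE 0.12). Its level was 44.5 per kilobase of exon over all libraries, the highest of the 7 leukocyte subunits, against 10.1 for its only beta partner Itgb2. The T cell genes Cd3e, Cd3g and Cd8a stood at 0 to 6.28, 0 to 4.66 and 0 to 3.73 normalized reads. Of the granulocyte genes in the same list, Mpo reached 1.79, while S100a8 and S100a9 were at 15.4 and 34.5 in NPC1-deficient 1 and at most 3.10 and 1.86 elsewhere. The ratio of Itgal to Itgb2 counts ran from 4.90 to 13.8 in wildtype and from 11.04 to 311 in NPC1-deficient libraries, the last in NPC1-deficient 4, where Itgb2 had 1 read. 

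The 3 least abundant leukocyte subunits overlapped between the groups. Itgae, the subunit CD103 that holds T cells in epithelia, stood at 19.4, 16.1, 11.2 and 27.8 in wildtype 1 to 4 and at 18.1, 19.01, 19.6 and 20.7 in NPC1-deficient 1 to 4 (log2 fold change 0.12, SE 0.28). Its beta partner Itgb7 stood at 22.8, 18.2, 16.8 and 14.4 in wildtype 1 to 4 and at 21.8, 14.01, 14.2 and 20.7 in NPC1-deficient 1 to 4 (log2 fold change -0.04, SE 0.26). Itgad, the neighbour of Itgax in the Itgam to Itgad stretch of chromosome 7 (128062640 to 128223816), stood at 30.8, 11.1, 20.5 and 15.3 in wildtype 1 to 4 and at 9.98, 13.01, 8.72 and 19.6 in NPC1-deficient 1 to 4. Its mean was 19.4 for wildtype and 12.8 for NPC1-deficient libraries, with a log2 fold change of -0.53 (SE 0.35).

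Per exon length, Itgb1 stood far above every other member. This subunit joins most of the matrix-binding alpha subunits, and its level was 1837 per kilobase over all libraries, followed by Itga3 at 123.1, Lamb1 at 107.1, Itgb5 at 92.0 and Itgav at 56.2. Its counts were 6867, 7318, 7218 and 7579 for wildtype 1 to 4, against 8313, 8070.2, 7539.5 and 7063 for NPC1-deficient 1 to 4. The ranges overlapped and the log2 fold change was 0.09 (SE 0.06), with a 95% interval from -0.03 to 0.22. Itgb4, the hemidesmosome subunit of epithelia, was low at 15.96 to 27.8 and had a log2 fold change of -0.12 (SE 0.24).

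**Figure D4:**
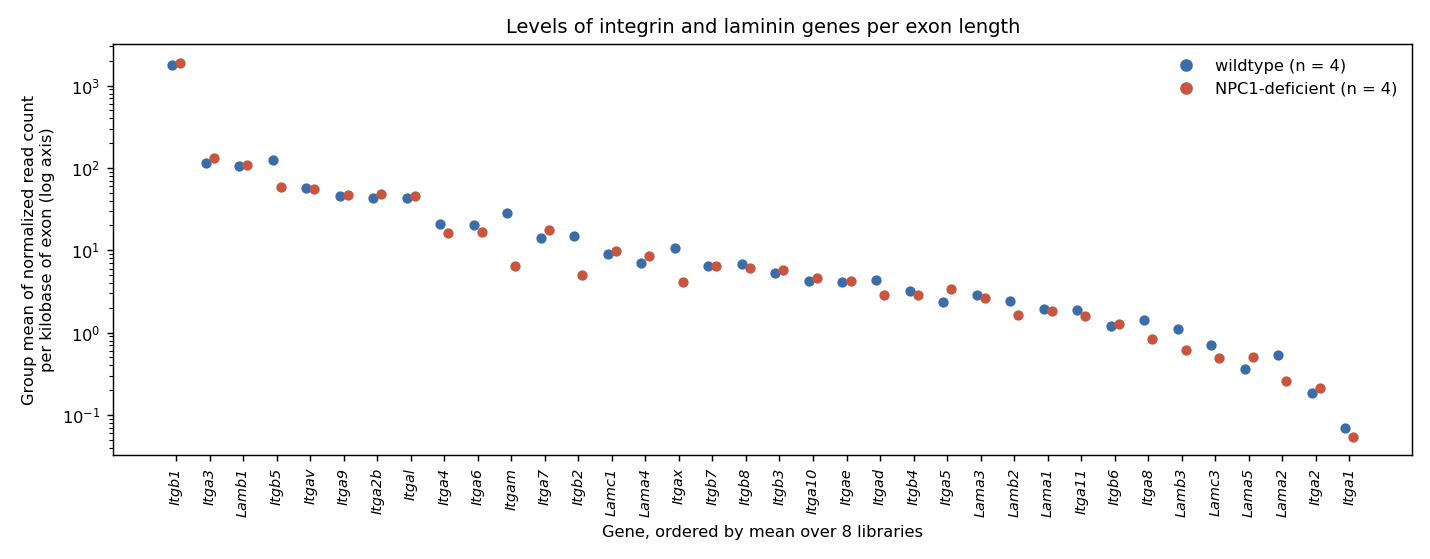
Group means (n = 4 each) of the normalized read count per kilobase of exon, on a log axis, for 36 members in order of their mean over 8 libraries. Itgb1 at 1837 leads the order, and Itgb5, at 125.8 in wildtype and 58.2 in NPC1-deficient libraries, has the widest gap on this axis among the members above 50 per kilobase.

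The alpha subunits that bind laminin did not pass, and their fold changes had different signs. Itga3 stood at 739, 649, 665 and 580.4 in wildtype 1 to 4 and at 748, 909, 673 and 662 in NPC1-deficient 1 to 4, with a log2 fold change of 0.18 (SE 0.11). The highest library was NPC1-deficient 2, and the ranges overlapped. Itga6, which joins beta-1 or beta-4, had means of 180.6 ± 13.4 for wildtype and 151.2 ± 20.2 for NPC1-deficient libraries (SD, n = 4), with a log2 fold change of -0.26 (SE 0.12, limma adjusted p = 0.753). Itga7, best known from muscle, averaged 115.7 ± 15.5 and 143.0 ± 19.2 (SD, n = 4), with a log2 fold change of 0.30 (SE 0.14, limma adjusted p = 0.753). Neither gene separated the groups.

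Of the remaining alpha subunits, Itga4 had the smallest p. Its product joins beta-1 or beta-7 and binds fibronectin and VCAM-1. It stood at 341, 261, 361 and 218 in wildtype 1 to 4 and at 205, 268, 210.4 and 233 in NPC1-deficient 1 to 4, with a log2 fold change of -0.34 (SE 0.16, limma adjusted p = 0.736). Wildtype 1 and 3 were the high libraries, and wildtype 2 and 4 lay inside the NPC1-deficient range. Cerkl on the opposite strand shares 8.04% of the Itga4 exons. Itga9, which joins beta-1 and binds tenascin-C among others, stood at 354, 393, 372 and 298 in wildtype and 397, 389, 309.6 and 330.4 in NPC1-deficient 1 to 4, and its log2 fold change was 0.01 with a 95% interval from -0.24 to 0.26.

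Itga2b, the platelet subunit that joins beta-3, was present at 243, 239, 236 and 229 normalized reads in wildtype 1 to 4 and at 259, 224, 273 and 309.8 in NPC1-deficient 1 to 4. The ranges overlapped, at a log2 fold change of 0.16 (SE 0.11) and an adjusted p = 0.924 in limma. Its level of 46.1 per kilobase was above the 5.50 of Itgb3, while the platelet genes Pf4 and Gp9 stood at 0 to 2.28 and 0 to 1.86 normalized reads. Itga5, the fibronectin receptor subunit, was low at 8.07 to 27.0, with a log2 fold change of 0.50 (SE 0.33). The collagen-binding Itga10 stood at 26.2, 21.2, 18.6 and 21.5 in wildtype and at 19.96, 24.02, 25.1 and 25.8 in NPC1-deficient 1 to 4, with a log2 fold change of 0.11 (SE 0.21). It shares 33.5% of its exonic length with Gm42957, a gene that is not in the deposited table.

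Of the laminin beta chains, 1 gene held most of the signal per exon length. Lamb1, the beta-1 chain, stood at 1083, 1067, 1148 and 889.9 in wildtype 1 to 4 and at 1114, 1323, 888 and 985 in NPC1-deficient 1 to 4. The log2 fold change was 0.03 with a 95% interval from -0.22 to 0.29, and the ranges overlapped. Lamc1, the gamma chain of most laminins, stood at 84.4, 84.8, 76.4 and 53.8 in wildtype 1 to 4 and at 101.6, 91.1, 57.8 and 71.2 in NPC1-deficient 1 to 4. The groups overlapped, with a log2 fold change of 0.09 (SE 0.21) and a level of 9.39 per kilobase. Lama4, an alpha chain of vessel walls, stood at 93.5, 111.0, 68.1 and 65.5 in wildtype and at 99.8, 117.1, 89.4 and 108.4 in NPC1-deficient 1 to 4, with a log2 fold change of 0.32 (SE 0.18, limma adjusted p = 0.873). At 7.80 per kilobase Lama4 was the highest alpha chain, below the 107.1 of Lamb1.

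Lamb2 was the other tested gene without overlap between the groups. This beta-2 chain, present in the inner limiting membrane and at synapses, stood at 14.8, 14.1, 15.8 and 14.4 normalized reads in wildtype 1 to 4 and at 6.35, 12.01, 13.1 and 8.26 in NPC1-deficient 1 to 4. The log2 fold change was -0.58 (SE 0.29) and did not pass (limma adjusted p = 0.781), and the counts were 7 to 17 reads a library. Lama2, the alpha-2 chain of muscle and glial basement membranes, also lay lower in every NPC1-deficient library, at 1.09 to 8.01 against 8.07 to 10.3, but on 1 to 9 reads a library it fell under the minimum. In the limma fit without that minimum its log2 fold change was -1.09 (adjusted p = 0.704). The closest Lama2 values, 8.01 in NPC1-deficient 2 and 8.07 in wildtype 2, were less than 1 read apart.

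Lama3, the alpha-3 chain, lies on chromosome 18 at 12333819 to 12583013, 97.4 kb from Npc1, which is at 12189692 to 12236400. Its means were 30.6 ± 3.19 for wildtype and 28.6 ± 8.67 for NPC1-deficient libraries (SD, n = 4), with a log2 fold change of -0.13 (SE 0.23), so no difference was seen in this neighbour of the mutated gene at counts of 22 to 38 reads. Lama1, an early embryonic chain, ranged from 10.1 to 34.2 with a log2 fold change of 0.02 (SE 0.37). The 9 members under the minimum, which include Itgb6 and Lama2 above, were low in all libraries. Itga8, a receptor subunit for nephronectin, ranged from 4.003 to 13.5 normalized reads, and the collagen-binding Itga11 from 0.897 to 17.1. The chains Lama5 of many adult basement membranes, Lamb3 of epithelial laminin, and Lamc3 ranged up to 9.12, 13.05 and 9.08. Itga1 and Itga2, collagen receptor subunits, had at most 2 and 3 reads in any library, which is not above the limit of 3 reads, or 2.69 to 3.42 normalized, that a count of 0 allows. That limit covers counting error only.

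The genes around the integrins and laminins were read from 6 lists with 136 distinct genes tested. None passed over all genes in limma and none in the edgeR quasi-likelihood test, whereas 10 (7.35%) passed in DESeq2, all lower, in a fit where 1.6% of all genes tested passed. With limma 23 of the 136 had an unadjusted p under 0.05, or 16.9%, against 6.76% of all genes tested, and the median log2 fold change was -0.0019 against 0.0050. Since the microglial level moved with genotype, values with that level as a term are given too.

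Inside the cell, 0 of 45 genes of the integrin adhesion machinery passed in limma (7 at an unadjusted p under 0.05), with 21 positive and 24 negative fold changes and a median of -0.0018. Tns3, a tensin that ties beta tails to actin, had means of 157 ± 37.9 for wildtype and 83.7 ± 24.5 for NPC1-deficient libraries (SD, n = 4), with a log2 fold change of -0.91 (SE 0.22, limma adjusted p = 0.126). With the microglial level as a term Tns3 was at -1.39 and passed (limma adjusted p = 0.0442), as it did within libraries 1 and 2 at -1.18 (0.0478), but in libraries 3 and 4 it was at -0.63 and did not pass (0.360). Fermt3, the kindlin of blood cells, averaged 53.9 ± 23.6 and 17.5 ± 2.89 (SD, n = 4), with a log2 fold change of -1.44 that was -0.39 with that term (limma adjusted p = 0.839). Lyn, a Src-family kinase of blood cells, had log2 fold changes of -1.16 and, with the term, -0.34. In libraries 1 and 2 Fermt3 and Lyn were at -0.75 and -0.78 and did not pass, while in libraries 3 and 4 they passed at -2.13 and -1.53 (limma adjusted p = 0.00495 and 0.0126).

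Of the integrin ligands outside the laminins, 0 of 24 passed in limma (4 unadjusted), with 10 positive, 14 negative and a median of -0.06. Icam1, a ligand of the beta-2 integrins, averaged 55.5 ± 32.1 and 10.2 ± 5.94 normalized reads in wildtype and NPC1-deficient libraries (SD, n = 4), which is -2.16 on the log2 scale (limma adjusted p = 0.130). Spp1, or osteopontin, a ligand of alpha-v integrins, averaged 242 ± 113 and 68.4 ± 46.6 (SD, n = 4), which is -1.93 on the log2 scale (limma adjusted p = 0.134). Icam1 was at -1.0 in libraries 1 and 2 (limma adjusted p = 0.651) and passed at -3.32 in libraries 3 and 4 (0.000975). In libraries 1 and 2 alone Spp1 was at -0.45, but in libraries 3 and 4 alone it was at -3.41 and passed (limma adjusted p = 2.91e-05), and the matricellular Ctgf had -0.67 over all libraries. Adding the microglial level to the fit gave -0.53 for Icam1, -0.81 for Spp1 and -0.53 for Ctgf.

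Among basement membrane partners of laminin 0 of 12 passed in limma (1 unadjusted), with 8 positive, 4 negative and a median of 0.06. Sparc, a matricellular glycoprotein, averaged 3516 ± 648 and 2321 ± 245 in wildtype and NPC1-deficient libraries (SD, n = 4) without overlap, a log2 fold change of -0.59 (SE 0.12, limma adjusted p = 0.0755) that was -0.25 with the microglial term. Sparc was at -0.28 in libraries 1 and 2 and passed at -0.89 in libraries 3 and 4 (limma adjusted p = 0.000905). The collagen genes Col4a1 and Col18a1 had log2 fold changes of -0.38 (SE 0.24) and -0.26 (SE 0.19). Of the laminin receptors outside the integrins, with the enzymes that glycosylate dystroglycan, 0 of 27 passed in limma (4 unadjusted), with 17 positive, 10 negative and a median of 0.05. Sdc4, a heparan sulfate proteoglycan of focal adhesions, averaged 155 ± 54.2 and 72.1 ± 11.9 (SD, n = 4) without overlap, a log2 fold change of -1.05 (SE 0.23, limma adjusted p = 0.0958) that was -0.76 with the microglial term. Sdc4 was at -0.72 in libraries 1 and 2 and passed at -1.37 in libraries 3 and 4 (limma adjusted p = 0.0160). Pomt2, an O-mannosyltransferase, and Sdc2 had log2 fold changes of 0.19 and -0.18.

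The last lists concern what alpha-v integrins do. Of 18 genes of latent TGF-beta and its signalling, which some alpha-v integrins activate, 0 passed in limma (5 unadjusted), with 6 positive, 12 negative and a median of -0.14. Tgfb3 averaged 706 ± 233 and 267 ± 110.0 in wildtype and NPC1-deficient libraries (SD, n = 4) without overlap, with a log2 fold change of -1.44 (SE 0.28, limma adjusted p = 0.0679). In libraries 1 and 2 alone Tgfb3 was at -1.88 and passed (limma adjusted p = 4.86e-05), in libraries 3 and 4 alone it was at -0.99, and with the microglial term it was -1.85 (limma adjusted p = 0.0683). Nrros, which holds latent TGF-beta on microglia, had a log2 fold change of -1.63 that was -0.40 with that term, and the receptor gene Tgfbr2 had -1.59 and -0.02. In libraries 1 and 2 Nrros and Tgfbr2 were at -1.07 and -0.28 and did not pass, and in libraries 3 and 4 they passed at -2.19 and -2.90 (limma adjusted p = 0.0147 and 0.00964). Of 13 genes of phagocytosis, in which alpha-v beta-5 takes part in the retinal pigment epithelium, 0 passed in limma (2 unadjusted), with 3 positive, 10 negative and a median of -0.10. Pros1, a ligand of the receptor tyrosine kinase MERTK, averaged 70.1 ± 8.59 and 32.8 ± 13.05 (SD, n = 4) without overlap, with a log2 fold change of -1.16 (SE 0.28, limma adjusted p = 0.126). With the microglial term Pros1 was at -0.69 (limma adjusted p = 0.714). Mertk itself was low, at 2.07 to 21.5 normalized reads, with -1.14 (SE 0.51) over all libraries, -0.08 in libraries 1 and 2 and -2.20 in libraries 3 and 4. Its sign turned with the microglial term, to 0.35. Its relative Axl had -0.27 (SE 0.13), and 0.08 with that term.

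The fall of Itgb5 passed under all 27 alternative settings run, with log2 fold changes between -1.59 and -0.86 and limma, edgeR or DESeq2 adjusted p between 4.55e-13 and 0.0453.

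**Figure D5:**
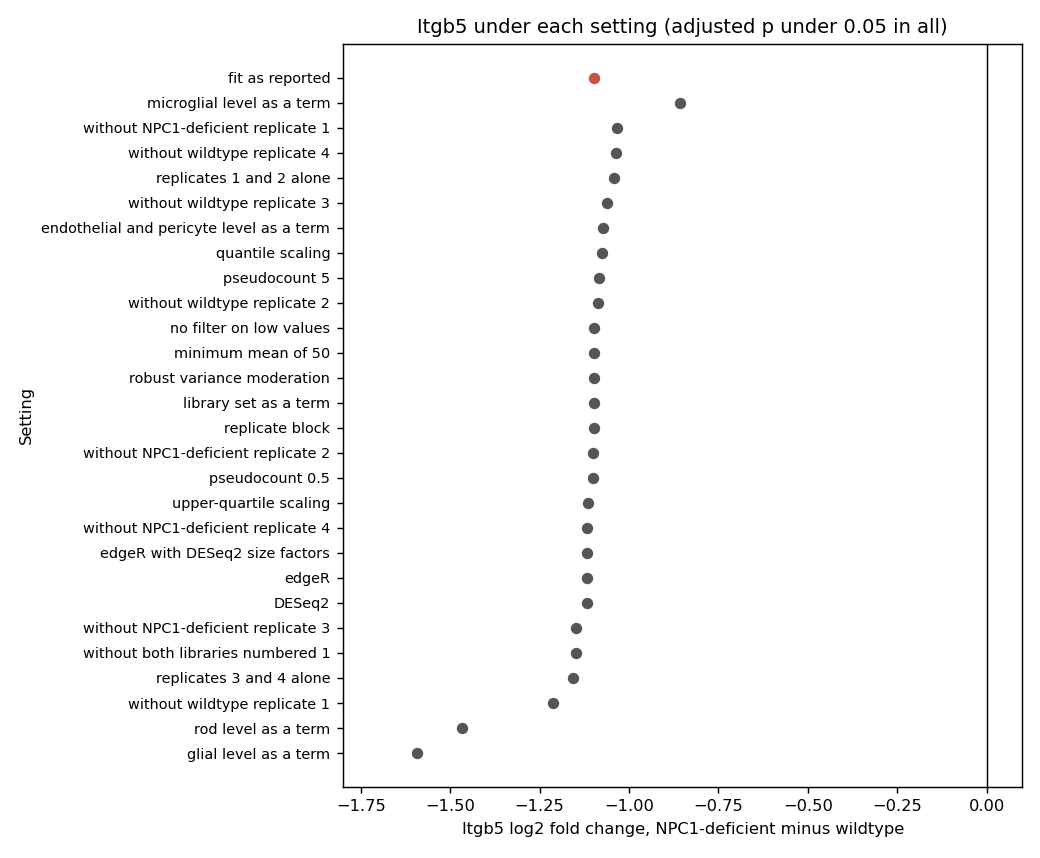
Log2 fold change of Itgb5, NPC1-deficient minus wildtype, in the fit as reported (red) and under each of the 27 alternatives. The values run from -1.59, with the glial level as a term, to -0.86, with the microglial level as a term, and the 8 fits that leave out 1 library lie between -1.21 and -1.03.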

How the data were processed

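RNA was sequenced from libraries made with the TruSeq RNA v2 kit, per the labels' protocols, which keeps no strand information. The submitters' processing notes list the build mm10 and, without roles, HTSeq 0.5.4p3, CASAVA 1.8.2 and DESeq2 1.0.19. The aligner and the annotation are not given in those sources. The values the authors deposited are a normalized signal, each a gene's read count over its library's size factor, since all 199536 values came out as whole reads within 1e-06. No library repeats another of its group (chi-square over degrees of freedom at least 4.54).

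Genes with a mean of at least 10 (15386) were tested on log2(value + 1) by limma 3.58.1 (R 4.3.3, variance trend on the mean), without covariates, under Benjamini-Hochberg adjustment over all genes at 0.05, and 9556 genes fell under the minimum. The fit was tested on simulated data in which genes varied independently, so that test does not cover shared shifts such as those of the marker levels. On the recovered reads, edgeR 4.0.16 (quasi-likelihood) and DESeq2 1.42.0 were alternatives, beside other pseudocounts (0.5 and 5), minimums (none and 50), scalings, robust moderation, a replicate block, the library set (1 and 2 against 3 and 4, as the second label field splits them), each set alone, left-out libraries and marker levels as terms. Exon lengths and overlaps came from GENCODE M21, on the same build, which held 24471 of 24942 identifiers (98.1%). Exon length may differ from what was counted. Of the members, 1 enters the counts and is otherwise not reported here. Those given by library are Itgb5, Itgav, the leukocyte subunits, any with an unadjusted p under 0.05 and the most abundant of each role. From each pathway list 3 genes with the smallest p are named. Lamb2, Lamc1, Itga2b, the other members and the DESeq2 counts were added to this after their values were seen. The members and lists were chosen with earlier results of these data known.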

Additional observations from a re-analysis of the deposited data

Results flagged for a closer look

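Of 56 groups of 4 libraries examined over the 28 members tested, 3 had 1 library far from the others by Dixon's criterion, and chance gives about 1 in 20. NPC1-deficient 2 was high for Itga5, at 27.0 normalized reads. Wildtype 4 was high for Itgb3, at 36.8. Wildtype 1 was low for Itga6, at 160.7.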

How the results depend on the processing

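Same-numbered libraries of the groups did not deviate together (correlations of -0.07 to -0.02), and none correlated best with its own number, so the numbers do not pair them. With the replicate block Itgb5 kept its value of -1.10 (limma adjusted p = 0.0021), 34 genes passed in all and 1 pathway gene did. A sign-flip test on the Itgb5 to Itgav ratio cannot go below 0.125 with 4 pairs. The count over all genes, 16 in the fit as reported, was 246 in DESeq2, 10 with a minimum of 50, 99 with the library set as a term, 57 in libraries 1 and 2 alone, 307 in libraries 3 and 4 alone and 167 without both libraries numbered 1. With the microglial, rod, glial, and endothelial and pericyte levels as terms it was 74, 65, 1 and 55. Leaving out single libraries gave 2 (without NPC1-deficient 3) to 141 (without wildtype 1). The members' count, 1 as reported, was 4 in libraries 3 and 4 alone, 2 without both libraries numbered 1, and between 1 and 3 (without wildtype 1) on leaving out single libraries. The pathway genes' count, 0 as reported, was 10 in DESeq2, 3 with the library set as a term, 2 in libraries 1 and 2 alone, 9 in libraries 3 and 4 alone, 7 without both libraries numbered 1, 1 and 2 with the microglial and rod levels as terms, and 0 to 6 (without wildtype 1) on leaving out single libraries. The causes were not tested. Of 717 values of the other members under these alternatives, 663 moved by less than 1 SD between replicates and 54 did not. Settings such as the replicate block and the library set leave these fold changes as they were, so the pooled count says little. All larger moves came with the microglial (13 members), rod (12) and glial (11) levels as terms and within each library set alone (9 each). Members under about 20 reads, such as Lamb2 and Lama2, are limited by depth.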
